A study of Mus musculus with 4 samples.

Results

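The Hox genes are the homeobox genes of the 4 mammalian clusters HoxA, HoxB, HoxC and HoxD, and 38 of them were examined here, out of 22718 genes measured. They were taken by name from a list and not by a limit on their values, although earlier results of these data were known. All 38 were matched by symbol: 10 in HoxA, 10 in HoxB, 9 in HoxC and 9 in HoxD. The study asked what the homeodomain protein Prep1 (gene Pknox1) does in mouse embryonic stem (ES) cells. RNA-seq was performed on 1 library of wild type C57BL/6 ES cells and 1 library of Prep1-/- C57BL/6 ES cells, the latter from 1 knockout line, both without further treatment. ChIP-seq for Prep1 was performed in wild type ES cells with an input control, labelled C57BL/6 too, although its protocol names the R1 line, another ES line than that of the RNA.

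Hox proteins are transcription factors that give cells their position along the head to tail axis, and the order of the genes along each cluster follows the order of the body levels at which they act. Genes at the same place in different clusters form a paralog group. Hox proteins bind DNA together with Pbx proteins, and Pbx in turn pairs with Prep1 or Meis, so that Hox, Pbx and Prep or Meis can share a target element. In undifferentiated ES cells the clusters are mostly silent under Polycomb marks, and they open from the anterior end during differentiation in response to retinoic acid, Wnt, Fgf and Cdx factors.

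With 1 library per genotype there was no replicate and no test of the genotypes. The ratio of a gene is its RPKM (reads per kilobase of transcript, scaled to library size) in the Prep1-/- library over that in the wild type library. The range after it is the exact 95% interval (Clopper-Pearson) of the split of its reads, which covers counting error only. The deposited gene counts summed to 29596294 (wild type) and 25717811 (Prep1-/-) reads, more than the study's methods state per sample. If the counts exceed the sequenced fragments, the intervals are too narrow, which was not tested. Pknox1 had 505 reads in wild type and 332 in the library labelled Prep1-/-, or 7.85 and 5.78 RPKM, a ratio of 0.736 (0.638 to 0.846). The library is named by its label throughout, since reads of the targeted gene were still present. RNA reads do not measure protein, and by immunoblot the study reported loss of Prep1 protein in its knockout lines. These include the line used for RNA-seq. Of 10 markers of pluripotent ES cells, 9 had an interval above 1, as had 20.6% of all genes with 20 or more reads. Among them were Pou5f1 at 1.11 (1.08 to 1.15) and Klf4 at 1.58 (1.53 to 1.64), while Zfp42 was at 0.801 (0.684 to 0.934). Most of these markers had far more reads than any Hox gene, so shifts as small as Utf1 at 1.04 (1.02 to 1.05) were counted. The share over all genes was not matched for read depth. By ratio, 1 of the 10 markers (Klf4) was above 1.5, as were 6.99% of all genes with 20 or more reads. In bulk libraries, fewer cells of a type and less RNA per cell cannot be told apart.

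Promoters are shown first for 4 of the genes, because they carry the letters that the partners of Hox proteins are known to bind. RefSeq (GRCm38.p6) gave windows of 250 bases before to 50 after the start for 22 of the 38 genes, 24 windows in all. They were searched on both strands for TGATTGACA (a Prep/Pbx element), TGACAG (a Prep or Meis site) and TGATNNAT (a Pbx/Hox element). TGATTGACA followed by G also holds TGACAG, and no match found in these windows overlapped another. The stretches below run 5′ to 3′ on the strand of the gene, with each match in capitals. Hoxa2 and Hoxa3 held TGACAG, in Hoxa3 as its complement, while Hoxa2, Hoxb1 and Hoxb8 held the Pbx/Hox element.
Hoxa2, chr6:52164857-52164956, minus strand, bases -125 to -26 from the start: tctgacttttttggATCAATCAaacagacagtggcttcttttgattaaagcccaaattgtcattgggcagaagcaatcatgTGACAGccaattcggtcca
Hoxa3, chr6:52213068-52213167, minus strand, bases -100 to -1: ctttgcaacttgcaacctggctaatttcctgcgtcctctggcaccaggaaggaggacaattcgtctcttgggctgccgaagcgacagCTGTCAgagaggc
Hoxb1, chr11:96365550-96365649, plus strand, bases -208 to -109: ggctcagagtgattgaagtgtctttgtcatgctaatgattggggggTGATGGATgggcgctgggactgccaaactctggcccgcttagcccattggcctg
Hoxb8, chr11:96281805-96281904, plus strand, bases -100 to -1: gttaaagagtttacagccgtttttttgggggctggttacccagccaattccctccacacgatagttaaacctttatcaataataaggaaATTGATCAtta

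TGATTGACA was in 0 of the 24 windows and in 0.432% of all 32851 windows. TGACAG was in 2 of the 24 (8.33%), against 19.2% of all windows. TGATNNAT was in 4 of the 24 (16.7%), the fourth being Hoxd11, against 8.85% of all windows. These are matches of letters in windows around the start and were not measured as bound sites. The Prep1 motif given by the study varies at some positions, and the letters searched match only some of its forms.

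Hox genes were expressed at a low level in both libraries. The RPKM of the 38 genes had a median of 0.291 in wild type and of 0.120 in Prep1-/-, where all measured genes had medians of 2.83 and 2.67. RPKM values were above 1 for 3 Hox genes in wild type (Hoxa3, Hoxb9 and Hoxc13) and for 2 in Prep1-/- (Hoxb9 and Hoxc13). Together the 38 genes held 1297 reads in wild type and 608 in Prep1-/-, or 43.8 and 23.6 CPM (counts scaled to library totals). The ratio of these sums was 0.524 (0.475 to 0.578). Without Hoxa3, which gave 24.0% of the wild type reads, the ratio was 0.559 (0.501 to 0.624).

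**Figure D1:**
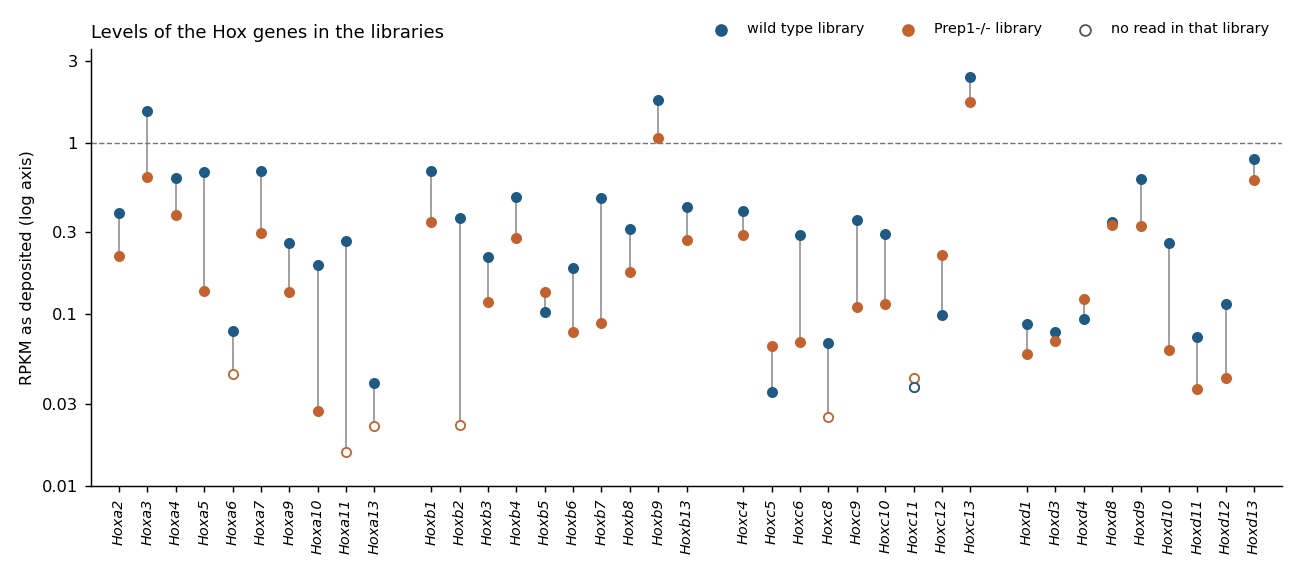
RPKM (log axis) of each of the 38 Hox genes in the wild type library (blue) and the Prep1-/- library (orange), 1 library each, in cluster order. An open circle is a gene with no read, whose RPKM stems from the 1 read that the deposited values add to every count. The dashed line marks an RPKM of 1, which 3 genes passed in wild type, and most blue points lie above their orange partner.

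Fold changes were read from the 22 Hox genes that had at least 20 reads in the libraries together. A gene can pass this limit through the wild type library alone, so the other 16 genes are described separately below. Of the 22, 16 (72.7%) had a ratio below 0.7, and 0 had a ratio above 1.5. Over all 15588 genes with 20 or more reads these shares were 15.2% and 6.99%. The Hox genes are among the weaker expressed of these, with at most 426 reads. In the 5381 genes from 20 to 426 reads, 27.6% had a ratio below 0.7. Hoxa3 sets the upper end of this range and only 8 of the 22 had 50 or more reads, so depth was matched only roughly. The median log2 ratio of the 22 genes was -0.84, beside -0.08 over all genes with 20 or more reads and -0.13 in the lower read range. All but Hoxd4 of the 22 (95.5%) were below 1, as were 59.5% of all genes with 20 or more reads.

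The 95% counting interval lay wholly below 1 for 11 of the 22 Hox genes (50.0%) and above 1 for 0. The background was 36.0% below and 20.6% above 1 for all genes with 20 or more reads. It was 24.0% below 1 for genes in the read range of the Hox genes. The study's limits on RPKM and ratio were applied here to the library in which a gene is higher (wild type RPKM above 1 with a ratio below 0.7, or Prep1-/- RPKM above 1 with a ratio above 1.5). With them 2 Hox genes were lower, Hoxa3 and Hoxb9, and 0 were higher. Of all genes above the RPKM limit, 13.8% passed the first filter and 7.20% the second.

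**Figure D2:**
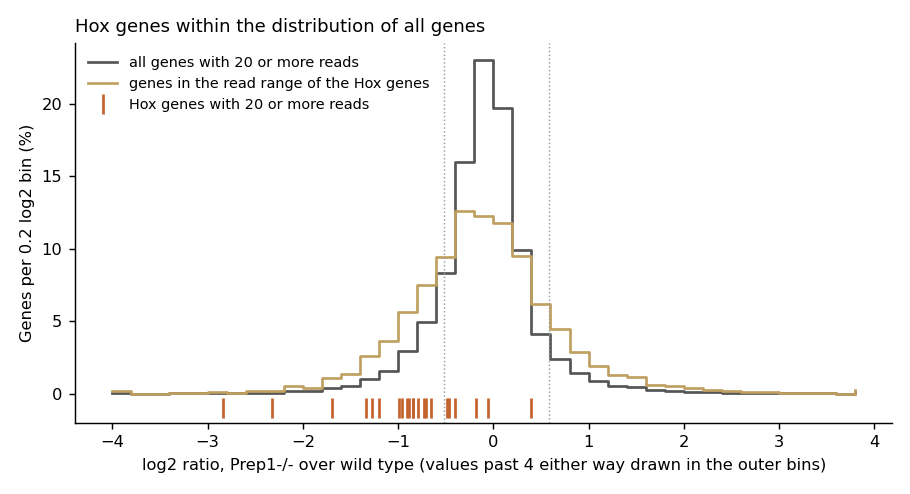
Distribution of the log2 ratio (Prep1-/- over wild type) for all genes with 20 or more reads (grey) and for genes from 20 to 426 reads (tan), as percent of genes per bin, with the 22 Hox genes of 20 or more reads as ticks. Dotted lines mark ratios of 0.7 and 1.5. The Hox ticks centre on -0.84 and 1 of them, Hoxd4, lies above 0.

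The anterior genes (groups 1 to 4) pattern the hindbrain, the branchial arches and the neck. Hoxa3, which is needed for the thymus, the parathyroid and the neck, had 311 reads in wild type and 115 in Prep1-/-, or 1.52 and 0.631 RPKM. Its ratio was 0.416 (0.331 to 0.514), the narrowest interval of the 22 genes on the log scale. Hoxb1, which sets the identity of the fourth hindbrain segment, had 30 and 13 reads (0.683 and 0.345 RPKM), a ratio of 0.505 (0.232 to 0.957). Hoxb3, a gene of the hindbrain, had 34 and 16 reads (0.217 and 0.118 RPKM), with a ratio of 0.543 (0.271 to 0.980). These 3 genes were lower in Prep1-/- beyond their counting intervals.

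Hoxa2, which sets the identity of the second branchial arch, had 19 reads in wild type and 9 in Prep1-/-, and a ratio of 0.559 (0.211 to 1.23). Hoxa4, a gene of the neck vertebrae, had 30 and 16 reads, and a ratio of 0.613 (0.304 to 1.13). Hoxb4, known also as a factor that expands blood stem cells, had 30 and 15 reads, and a ratio of 0.577 (0.280 to 1.07). For these 3 genes the ratio was below 0.7 but the interval included 1. Hoxc4 had 19 and 12 reads, with a ratio of 0.727 (0.313 to 1.53). Hoxd3, which shapes the first neck vertebrae, had 23 and 18 reads, a ratio of 0.885 (0.445 to 1.69). Hoxd4 had 10 and 12 reads, a ratio of 1.32 (0.531 to 3.47), the only one of the 22 above 1. Hoxd3 and Hoxd4 overlap, so that 67.4% of the exon bases of Hoxd4 and 35.8% of those of Hoxd3 also lie in exons of another annotated gene, and reads there can be given to either gene.

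The central genes (groups 5 to 8) act in the lower neck and the thorax. Hoxa5, which is needed for the trachea and the lung, had 38 reads in wild type and 6 in Prep1-/-, or 0.677 and 0.136 RPKM. Its ratio was 0.201 (0.0610 to 0.421). Hoxa7 had 40 and 15 reads (0.683 and 0.298 RPKM), with a ratio of 0.436 (0.215 to 0.776). Both were lower in Prep1-/- beyond their counting intervals. Hoxb8, known from the spinal cord and from myeloid progenitors, had 25 and 12 reads, and a ratio of 0.559 (0.246 to 1.11). Hoxd8 had 34 and 29 reads, and its ratio of 0.958 (0.561 to 1.61) was close to 1. Hoxb8 shares 40.4% of its exon bases with Hoxb7, its neighbour.

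The posterior genes (groups 9 to 13) act in the lower trunk, the limbs and the tail. All 4 members of group 9 had at least 20 reads and all 4 had a ratio below 0.7. Hoxb9, a gene of the thoracic skeleton, had 147 reads in wild type and 79 in Prep1-/- (1.77 and 1.07 RPKM), a ratio of 0.604 (0.451 to 0.795). Hoxc9, which sets the thoracic identity of motor neurons, had 17 and 4 reads, a ratio of 0.311 (0.0644 to 0.807). Hoxd9 had 39 and 18 reads, a ratio of 0.531 (0.278 to 0.924). Hoxa9, a regulator of blood stem cells that is often overexpressed in leukaemia, was the exception by its interval: with 23 and 10 reads its ratio was 0.512 (0.207 to 1.06).

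Group 10 holds the genes that suppress ribs in the lumbar region. Hoxa10, also required in the uterus, had 23 reads in wild type and 2 in Prep1-/-, or 0.195 and 0.0272 RPKM. Its ratio of 0.140 (0.0111 to 0.393) was the lowest of the 22 genes, and it rests on 2 reads in Prep1-/-. Without the 1 read that the deposited values add to every count, it was 0.0972. Hoxc10 had 16 and 5 reads, a ratio of 0.395 whose interval of 0.100 to 0.998 just missed 1. Group 13 was closer to equal levels. Hoxc13, which is needed for hair and nails and had the highest RPKM of the 38 genes, had 183 and 116 reads (2.43 and 1.73 RPKM). Its ratio was 0.711 (0.557 to 0.899), below 1 by its interval but not below 0.7. Hoxb13, known from the prostate and the tail, had 27 and 15 reads and a ratio of 0.639 (0.307 to 1.21). Hoxd13, a gene of the digits, had 61 and 41 reads and a ratio of 0.757 (0.493 to 1.13).

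**Figure D3:**
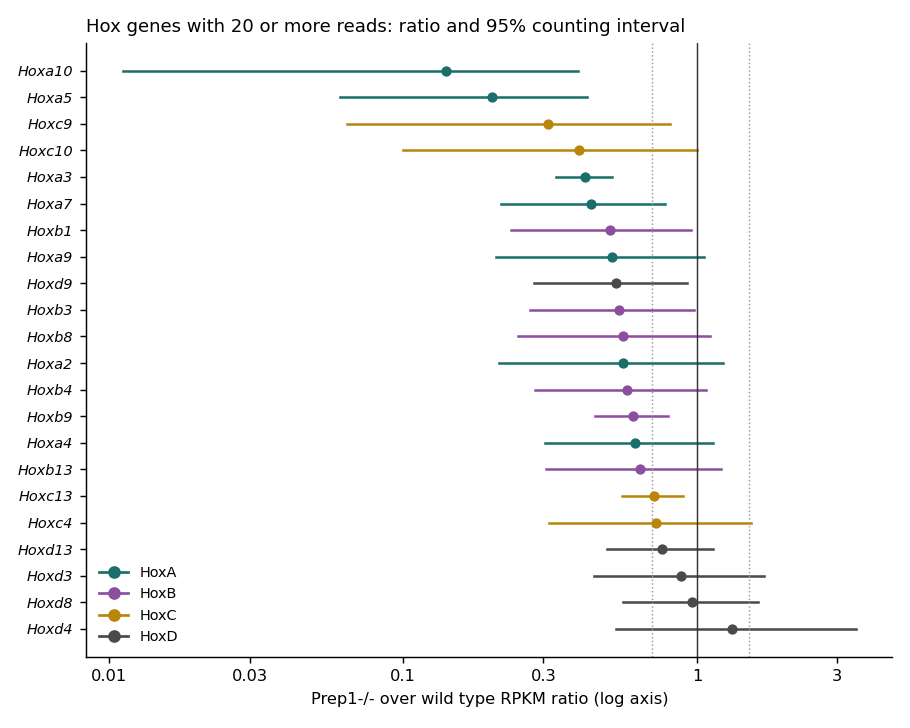
Ratio of RPKM (Prep1-/- over wild type, log axis) with its exact 95% counting interval for the 22 Hox genes with 20 or more reads, coloured by cluster. The solid line marks 1 and dotted lines mark 0.7 and 1.5. The ratios run from 0.140 for Hoxa10 to 1.32 for Hoxd4, and 11 intervals end below 1.

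The remaining 16 Hox genes had 0 to 19 reads in the libraries together. Their reads summed to 118 in wild type and 30 in Prep1-/-, a ratio of 0.284 (0.184 to 0.427). Wild type held more reads than Prep1-/- for 12 of them. The reverse was seen for 3, Hoxb5 (5 and 6), Hoxc5 (2 and 4) and Hoxc12 (2 and 5), and Hoxc11 had no read in either library. A library with no read allows up to 3 reads.

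Hoxa11, a gene of the forearm, the kidney and the uterus, had 18 reads in wild type and 0 in Prep1-/-. Set at the floor of 3 reads in Prep1-/- it was at least 5.37-fold lower, while its counting interval allowed a ratio of up to 0.254. Hoxb2, which acts in the hindbrain with Hoxb1, had 17 and 0 reads. At the same floor it was at least 5.07-fold lower, and its interval allowed a ratio of up to 0.271. The floor bounds take no account of counting error in wild type. Hoxb7 had 17 and 2 reads, a ratio of 0.186 (0.0147 to 0.554). Hoxc6 and Hoxd10 each had 13 and 2 reads, and each had a ratio of 0.240 (0.0188 to 0.760). These 5 genes, named after their values were seen, are those of the 16 whose interval ended below 1. They are 33.3% of the 15 Hox genes with 1 to 19 reads, against 3.24% of all 5025 genes in that range, and 62.5% of the 8 with 10 to 19 reads, against 8.93% of 1131 genes. Wild type held more reads for 80.0% of the 15, against 50.4% of the 5025. Some were too shallow for a fold: Hoxa6, Hoxa13 and Hoxc8 had 1, 1 and 2 reads in wild type and 0 in Prep1-/-. The last 4, Hoxb6, Hoxd1, Hoxd11 and Hoxd12, had 4 to 8 reads in wild type and 2 or 3 in Prep1-/-, with intervals that included 1.

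**Figure D4:**
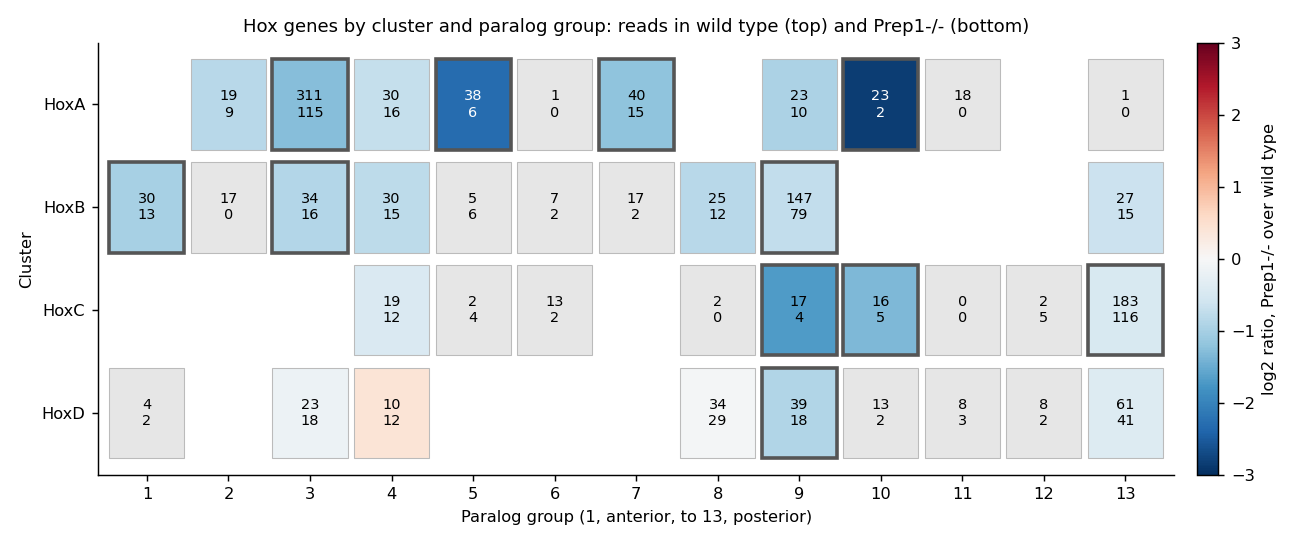
The 38 Hox genes by cluster (vertical axis) and paralog group (horizontal axis), with the reads in wild type (top number) and in Prep1-/- (bottom number). Colour gives the log2 ratio for genes with 20 or more reads, grey squares had fewer, and a thick frame marks the 11 genes whose counting interval lies below 1. Blank squares hold no gene of the list. All coloured squares of HoxA, HoxB and HoxC are blue, and the HoxD row is the palest.

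The clusters differed in their summed reads. HoxA had 504 reads in wild type and 173 in Prep1-/-, a ratio of 0.384 (0.321 to 0.457). HoxB had 339 and 160 reads, a ratio of 0.528 (0.435 to 0.639). HoxC had 254 and 148 reads, a ratio of 0.652 (0.528 to 0.801). The smallest difference was in HoxD, which had 200 and 127 reads and a ratio of 0.710 (0.564 to 0.891). All 4 sums were lower in Prep1-/- beyond the counting interval.

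Between clusters, the ratio of HoxA was 0.727 times that of HoxB (exact conditional 95% interval 0.559 to 0.947), 0.589 times that of HoxC (0.448 to 0.776) and 0.541 times that of HoxD (0.404 to 0.724). The comparisons among HoxB, HoxC and HoxD all had intervals that included 1, from HoxB against HoxD at 0.744 (0.550 to 1.01) to HoxC against HoxD at 0.918 (0.672 to 1.25). HoxA was thus lower than each of the others beyond counting error, and the spread between cultures was not measured. Single genes weighed heavily in these sums. Hoxa3 gave 61.7% of the HoxA reads in wild type, and the other 9 HoxA genes had a ratio of 0.336 (0.246 to 0.453). Hoxc13 gave 72.0% of the HoxC reads, and HoxC without it had 71 and 32 reads and a ratio of 0.504 (0.321 to 0.775). HoxB without Hoxb9 was at 0.472 (0.359 to 0.615) and HoxD without Hoxd13 at 0.692 (0.522 to 0.912). With these 4 genes left out, HoxA against HoxB (0.713, 0.471 to 1.07) and against HoxC (0.668, 0.390 to 1.15) no longer differed beyond counting error, while HoxA against HoxD did (0.486, 0.319 to 0.737).

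By position along the clusters, the sums over all listed genes gave no separation beyond counting error. Anterior genes summed to 527 reads in wild type and 228 in Prep1-/-, a ratio of 0.484 (0.412 to 0.566). Central genes summed to 184 and 78 reads, a ratio of 0.474 (0.359 to 0.621). Posterior genes summed to 586 and 302 reads, a ratio of 0.576 (0.500 to 0.663). Every comparison between these classes had an interval that included 1, the widest gap being central against posterior at 0.823 (0.601 to 1.12). This depended on single genes. Without the gene with most reads in each class, the ratios were 0.585 (0.462 to 0.738) for anterior genes without Hoxa3, 0.365 (0.259 to 0.507) for central genes without Hoxd8 and 0.516 (0.431 to 0.615) for posterior genes without Hoxc13. Anterior against central was then 1.60 (1.06 to 2.43), beyond counting error, and anterior against posterior was 1.13 (0.842 to 1.52). Among paralog groups, group 10 had 52 and 9 reads with a ratio of 0.194 (0.0838 to 0.396), while group 13 had 272 and 172 reads with a ratio of 0.707 (0.581 to 0.859).

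Genes next to the clusters were read by position. At HoxA, Evx1, a homeobox gene of the primitive streak that lies 52.6 kb from Hoxa13, had 48 reads in wild type and 5 in Prep1-/-, a ratio of 0.137 (0.0362 to 0.291). Farther out, Skap2 and Hibadh had ratios of 1.04 (0.933 to 1.16) and 1.19 (1.07 to 1.31). At HoxB, Ttll6, a tubulin-modifying enzyme that lies 28.9 kb from Hoxb13, had 371 and 577 reads, a ratio of 1.74 (1.52 to 1.99), and Calcoco2, an autophagy receptor, had 640 and 962 reads, a ratio of 1.68 (1.52 to 1.86). Both were higher in Prep1-/-, unlike the HoxB genes with 20 or more reads. On the other side of HoxB, Skap1 had 7 and 9 reads and Snx11 was at 1.05 (0.977 to 1.14). Inside the HoxB span, the pseudogene AL645478.15 had 92 and 122 reads, a ratio of 1.48 (1.12 to 1.97). Gm53, also inside it, had 23 and 28 reads, a ratio of 1.35 (0.756 to 2.47). All other genes outside the Hox family counted inside the cluster spans had fewer than 20 reads. At HoxD, Evx2 had no read in either library, and Lnp and Mtx2 had ratios of 0.924 (0.850 to 1.00) and 0.943 (0.849 to 1.05). At HoxC, Calcoco1 was at 0.998 (0.934 to 1.07) and Smug1, a DNA repair glycosylase, at 0.914 (0.808 to 1.03), while Cbx5, which encodes the heterochromatin protein HP1 alpha, was at 1.18 (1.16 to 1.21). The expressed genes of the whole chromosomes had median ratios of 1.01 (chromosome 6, HoxA), 1.03 (chromosome 11, HoxB), 0.930 (chromosome 15, HoxC) and 0.939 (chromosome 2, HoxD). The miRNA genes of the clusters (mir-10a, mir-10b, mir-196a-1, mir-196a-2, mir-196b and mir-615) had 0 reads in wild type and 1 in Prep1-/- in all, from a polyA library.

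No Prep1 peak was found in or near the clusters. The 3902 deposited peaks (mm9, the same build as the gene positions used, NCBIM37) held 0 within 100 kb of any of the 4 clusters, whose listed genes span chr6:52112350-52210874, chr11:96055630-96229570, chr15:102751534-102867274 and chr2:74506367-74603200. Starts of the 38 genes lay 118 to 870 kb from the nearest peak, with a median of 313 kb, where the median over 21446 annotated genes was 121 kb. Of those, 18.9% had a peak within 20 kb of the start, against 0 of the 38. The 38 starts lie in only 4 spans, and genes of a cluster mostly share their nearest peak. They are therefore not 38 separate observations to set against single genes. The peak nearest to a cluster was at chr11:95936941-95937443 in Atp5g1, 118 kb from Hoxb13, with a fold enrichment of 13. The peak nearest to HoxC lay 133 kb away (fold enrichment 8), that nearest to HoxA 379 kb away in Hibadh (fold enrichment 10) and that nearest to HoxD 775 kb away in Atf2 (fold enrichment 51). Over all peaks the median enrichment was 21.0. The peak caller leaves out regions below its threshold, so weaker binding was not measured.

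The partners of Hox proteins were mostly lower as well. Pbx2 had 2564 reads in wild type and 1926 in Prep1-/-, a ratio of 0.840 (0.791 to 0.891). Pbx3 was at 0.886 (0.823 to 0.954) and Pbx4 at 0.613 (0.527 to 0.710). Meis genes encode proteins that bind Pbx at the same surface as Prep1. Meis1 had 378 and 152 reads (2.41 and 1.09 RPKM), a ratio of 0.451 (0.370 to 0.544). Meis2 was at 0.641 (0.564 to 0.725) and Meis3 at 0.672 (0.563 to 0.798). Pknox2, which encodes the Prep1 paralog Prep2, went the other way with 199 and 380 reads and a ratio of 2.13 (1.79 to 2.55). Of the 8 partner genes described, Pknox1 included, 4 had a ratio below 0.7 and 1 above 1.5, and their median log2 ratio was -0.51. Over all genes with 20 or more reads these shares were 15.2% and 6.99%.

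Cdx factors activate central and posterior Hox genes. All 4 measured Cdx and ParaHox genes were below 0.7 with intervals below 1. Among all genes with 20 or more reads, 15.2% were below 0.7 and 36.0% had intervals below 1. Cdx1 had 1258 reads in wild type and 620 in Prep1-/- (24.4 and 13.5 RPKM), a ratio of 0.552 (0.500 to 0.607). Cdx2 had 186 and 36 reads, a ratio of 0.221 (0.147 to 0.311), and Cdx4 had 53 and 20 reads, a ratio of 0.435 (0.239 to 0.718). Pdx1, a ParaHox gene of the pancreas, had 30 and 2 reads, a ratio of 0.108 (0.00863 to 0.294). Cdx1 was therefore the most abundant of these genes per length, well above every Hox gene in either library.

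Among signals and factors that act upstream of Hox genes, 9 of 19 with 20 or more reads were below 0.7 and 1 was above 1.5. The shares over all genes with 20 or more reads were 15.2% and 6.99%. The median log2 ratio of the 19 genes was -0.44. The 4 lowest were Rarb at 0.194 (0.0719 to 0.372), T (Brachyury) at 0.249 (0.215 to 0.285), Fgf8 at 0.251 (0.200 to 0.308) and Wnt3 at 0.276 (0.227 to 0.330). Rarb is a retinoic acid receptor and a direct target of retinoic acid. Fgf8 and Wnt3 are signals of the primitive streak, where T is the defining transcription factor. Rxrg, a retinoid X receptor, was the 1 above 1.5, with 112 and 154 reads and a ratio of 1.53 (1.20 to 1.98).

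Chromatin regulators of the clusters were set against all genes with 20 or more reads, of which 15.2% were below 0.7 and 6.99% above 1.5. Of 19 Polycomb genes, which keep Hox genes silent, 2 were below 0.7 (Cbx8 and Phf1) and 0 above 1.5, and the median log2 ratio was 0.09. Cbx8 was at 0.530 (0.187 to 1.20) and Phf1 at 0.675 (0.599 to 0.758). By their intervals, 9 of the 19 were above 1 and 4 below, where the shares over all genes were 20.6% and 36.0%. The highest was Jarid2 at 1.41 (1.38 to 1.44), and Ezh2 and Suz12, core subunits of Polycomb complex PRC2, were at 1.39 (1.33 to 1.45) and 1.36 (1.27 to 1.45). Of 9 Trithorax genes, which keep Hox genes active, 0 passed either limit, and the ratios ran from 0.766 to 1.17 with a median log2 ratio of 0.11. By their intervals, 5 of the 9 were above 1 and 4 below. Most genes of both lists had far more reads than any Hox gene, so small shifts moved their intervals off 1. The shares over all genes were not matched for read depth.

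Many markers of differentiating cells were lower in Prep1-/- along with the Hox genes. As background, 15.2% of all genes with 20 or more reads were below 0.7 and 6.99% above 1.5. Of 8 genes of the primitive streak and early mesoderm, 6 were below 0.7, and their summed RPKM was 32.1 in wild type and 11.7 in Prep1-/-. The lowest were Lhx1 at 0.119 (0.0533 to 0.204) and T, and none of the 8 had 0 reads. Of 8 genes of the primitive endoderm, 6 were below 0.7, with summed RPKM of 95.3 and 52.1. Col4a1 alone held 75.5 and 35.7 of these. The lowest was Pdgfra, a receptor of that lineage, at 0.315 (0.131 to 0.602), while Sox7 at 1.39 (1.09 to 1.79) and Lama1 at 1.12 (1.05 to 1.20) were higher in Prep1-/-. Neural progenitor genes were mixed, with 0 of 6 below 0.7 and 1 above 1.5 (Pax6 at 1.83) and summed RPKM of 47.4 and 36.1. Olig2 alone held 42.7 and 30.8 of these, so the fall in the sum is that of Olig2. Fibroblast or feeder cell genes had 1 of 9 below 0.7 (Twist2 at 0.588) and 3 above 1.5 (Postn, Dcn and Col3a1). Their summed RPKM was 150 and 172, of which Acta2 alone held 123 and 140. Of the 3 above 1.5, Postn had 6 reads in wild type and 33 in Prep1-/-, a ratio of 5.43 (2.54 to 18.0). The intervals of Dcn (0.630 to 4.73) and Col3a1 (0.908 to 2.62) included 1. By interval, 3 of the 9 were above 1 and 1 below. Fap had no read in either library and Lum had 0 and 2. The part of these cell types in the lower Hox reads was not tested.

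The annotation limits some of these values. Of the 38 Hox genes, 17 share exon bases with another annotated gene on either strand, and the library kit did not mark the strand. For Hoxa3 53.5% of the exon bases are shared, but the 3 overlapping genes that were counted, 2700086A05Rik, 5730446D14Rik and 5730596B20Rik, held at most 5 reads each in either library. With the overlapping genes left out, 8 of 12 Hox genes with 20 or more reads (66.7%) had a ratio below 0.7.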

How the data were processed

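The authors mapped paired-end RNA-seq reads to Ensembl transcripts with RSEM and deposited whole-number read counts and RPKM per gene for 1 wild type and 1 Prep1-/- library. The deposited RPKM values proved proportional to the count plus 1, with 1 factor (1.12) between the libraries. RPKM was listed as infinite for 85 genes, none of them a Hox gene, and these were left out. The authors mapped ChIP-seq reads to mm9 with BWA, called peaks with MACS against the input and deposited a score per peak, its fold enrichment over input. Versions are not given in the sources used here.

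Ratios are of deposited RPKM and so hold the 1 read that these add to each count. No further pseudocount was added. Sums of reads were scaled by the same factor. Intervals are exact (Clopper-Pearson, scipy 1.17.1, Python 3.11.15) at 95% and treat reads as independent molecules. No p-value was computed. Gene positions and overlaps came from GENCODE M1 on NCBIM37, promoters from RefSeq. The steps were tested on simulated counts, with changes placed only in genes of higher RPKM than any Hox gene had in Prep1-/-. Recovery of changes at the levels of the Hox genes was not tested. The Hox genes, gene lists and limits were chosen with earlier results of these data known. Every listed Hox gene is accounted for, with full values from 20 reads in the libraries together, or RPKM above 1. From each gene list up to 4 genes past the limits are named by size of the log2 ratio, and Pbx2 to Pbx4, Meis1 to Meis3, Cdx1, Cdx2, Cdx4, Evx1 and Evx2 in any case. Genes beside the clusters were chosen by position. Other scalings, pseudocounts and filters were tried. Hox genes outside the list were not analysed here, nor was the input library, and no protein sequences were used. Some genes of the other lists are not reported here and are left out of their counts.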

Additional observations from a re-analysis of the deposited data

How the results depend on the processing

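Each genotype was 1 library, so no replicate could be left out, and no paired analysis was possible because the labels share no replicate numbers. Most Hox genes had few reads, and depth limits every single ratio. Scaling to the median ratio of expressed genes (a log2 shift of 0.07) or by summed counts (0.04) changed no count of Hox genes by over 1.5 times and no direction of a sum or of the median. The number of Hox genes past the RPKM and ratio limits in the lower direction was 2, and it was 1 with a pseudocount of 1, 7 with RPKM above 0.5, 0 with RPKM above 2, 28 without an RPKM filter and 1 with limits of 0.5 and 2. In the higher direction it was 0, and 2 without an RPKM filter. The 28 include Hoxa6 and Hoxa13, with 1 read in wild type and 0 in Prep1-/-, whose ratios rest on the added 1. Shares over all genes at these other RPKM settings were not counted. The 16 Hox genes with 20 or more reads and a ratio below 0.7 became 2 with a pseudocount of 1, which exceeds the RPKM of most of them. They became 5 with 50 or more reads (62.5% of 8 Hox genes tested, against 13.2% of all genes with 50 or more reads). With limits of 0.5 and 2 they became 6 (27.3%, against 4.23% of all genes with 20 or more reads). They became 8 without Hox genes that share exon bases (12 tested), an alternative chosen after seeing the data. The median log2 ratio of -0.84 ran from -0.94 to -0.21, the latter with a pseudocount of 1. Without the gene with most reads, the summed ratio was 0.504 for HoxC and 0.585 for anterior genes. From reads without the added 1, the count of 16 did not change and the median was -0.91. The share of all genes below 0.7 was 15.2%, and 27.6% in the read range of the Hox genes, also chosen after seeing the data. Of 132 single ratios under alternatives, 127 stayed within the counting interval, 5 left it, all under a pseudocount, and 0 turned direction among genes below 0.7. No peak lay within 5, 20 or 100 kb of a cluster. A stricter peak threshold was not run, since the deposited score does not hold the p-value it needs.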
